A study of Mus musculus with 6 samples.

Results

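Heterotrimeric G proteins, receptors that act through them, and the enzymes that make or break down cyclic nucleotides were examined in RNA from tagged ribosomes of the mouse midbrain. The genes were chosen by a rule on their symbols, with earlier results of these data known. It took the G alpha, beta and gamma subunits, the RGS proteins, adenylyl cyclases, phosphodiesterases, beta arrestins, receptor kinases and phospholipase C beta. It also took the adenosine, GABA-B, metabotropic glutamate and numbered orphan receptors. The rule found 41 of the 5538 genes with values, out of 191 protein-coding genes of the mouse annotation whose symbols match it. Every library has at least 7 TPM (the share of transcripts, scaled to the same sum in each library) for every gene listed, so a gene low in any 1 library has no value here. Of the annotated genes, 8 of 13 alpha subunits, 3 of 5 beta subunits and 5 of 12 gamma subunits had values, but only 5 of 80 receptors, 11 of 31 regulators, 2 of 23 phosphodiesterases and 1 of 14 cyclase or phospholipase genes. The receptor genes are therefore described only in their most abundant members.

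All libraries came from C57BL/6 mice with a CreER recombinase driven by the Fos promoter and a Cre-dependent reporter, eGFP-L10a, a ribosomal protein fused to a green fluorescent protein. Every mouse was kept awake for 6 hr and then slept for 3 hr. The activating drug 4-OHT was given just before the waking or the sleeping phase, and the series text names the cells tagged in recovery sleep, RS-eGFP neurons, as those profiled. The IP group (3 libraries) is RNA recovered from the dissected perioculomotor (pIII) region with antibodies against eGFP, and the Input group (3 libraries) is read here as RNA of the same kind of tissue before that step. Both groups carry the same alleles and treatment, and each repeat pooled 4 to 5 mice, so a replicate is a pool. Tagging depends on Fos promoter activity and marks no single cell type, and in bulk RNA fewer cells of a type and less RNA per cell cannot be told apart.

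A G protein is a trimer of an alpha subunit, which binds GTP when a receptor is activated, and a beta-gamma pair that is released with it. The alpha subunit sets the branch: Gs and Golf (Gnas, Gnal) stimulate adenylyl cyclase and so raise cyclic AMP, Gi, Go and Gz (Gnai1, Gnai2, Gnao1, Gnaz) inhibit it, and Gq and G11 switch on phospholipase C beta. RGS proteins speed the return to rest, receptor kinases and arrestins silence the receptor, and phosphodiesterases remove the cyclic nucleotide. In midbrain neurons this machinery carries the signals of GABA, adenosine, peptides and monoamines, and cyclic AMP reaches the nucleus through CREB, a factor that binds the cAMP response element.

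The stretches upstream of annotated starts are shown for the receptor kinase gene Grk6 and the GABA-B receptor gene Gabbr1, whose IP and Input libraries did not overlap once each was set against its own median gene, for Pde4a, a phosphodiesterase gene with a partial cAMP response element, and for the gamma subunit gene Gng2 (sequences from RefSeq, build GRCm38.p6, 5′ to 3′ on the gene's strand). Capitals mark GACGTCA, which is TGACGTC read on the other strand and holds CGTCA, the short form of the element. The Grk6 stretch, the first of 3 for this gene, lies at chr13:55444822-55445071 on the plus strand and that of Gabbr1 at chr17:37045716-37045965 on the plus strand, and neither touches an annotated transcript. That of Pde4a, at chr9:21183851-21184100 on the plus strand, and that of Gng2, at chr14:19976694-19976943 on the minus strand, lie in introns of longer transcripts of the same genes. The Pde4a stretch was picked for its match. Other stretches of Pde4a, including that before the start of the annotated gene, hold no copy of the short form on either strand.
Grk6: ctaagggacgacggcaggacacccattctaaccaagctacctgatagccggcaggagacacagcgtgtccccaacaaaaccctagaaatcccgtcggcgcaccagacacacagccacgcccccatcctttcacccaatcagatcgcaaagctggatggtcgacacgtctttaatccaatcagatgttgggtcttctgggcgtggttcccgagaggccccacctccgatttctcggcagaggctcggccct
Gabbr1: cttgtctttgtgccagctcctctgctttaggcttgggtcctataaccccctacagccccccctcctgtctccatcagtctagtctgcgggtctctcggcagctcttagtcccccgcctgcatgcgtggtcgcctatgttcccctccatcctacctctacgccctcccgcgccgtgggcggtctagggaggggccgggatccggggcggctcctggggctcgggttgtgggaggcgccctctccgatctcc
Pde4a: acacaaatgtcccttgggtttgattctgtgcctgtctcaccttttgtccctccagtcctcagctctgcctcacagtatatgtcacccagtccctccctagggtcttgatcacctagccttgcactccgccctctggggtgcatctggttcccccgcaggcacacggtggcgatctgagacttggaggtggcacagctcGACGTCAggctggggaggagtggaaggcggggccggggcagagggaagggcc
Gng2: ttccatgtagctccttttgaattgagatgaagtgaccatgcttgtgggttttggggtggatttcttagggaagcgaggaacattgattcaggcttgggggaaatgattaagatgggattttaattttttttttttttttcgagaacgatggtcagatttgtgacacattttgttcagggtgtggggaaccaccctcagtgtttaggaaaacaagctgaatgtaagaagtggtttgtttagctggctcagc
Stretches were found for 32 of the 41 genes, 51 in all. The full element TGACGTCA was in 0 of the 51 and in 1.55% of the 32851 stretches of all genes, both strands searched. TGACGTC was in 1, that of Pde4a shown here, where the short form inside it begins 50 bases before the start, and in 2.78% of all. The short form TGACG, counted wherever it occurs and so also inside the longer motifs, was in 12 stretches of 10 genes (Gnas, Gnb1, Gnb1l, Gng7, Gpr108, Gpr137, Pde4a, Rgs2, Rgs4 and Rgs7bp) and in 17.8% of all. Stretches of the same gene can overlap, and those of Gnas at chr2:174327499-174327748 and chr2:174327518-174327767 hold the same copy. A match is a description of the letters only.

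The libraries differed in scale. The median gene stood at 27.7 TPM in IP 1 and 31.1 in Input 3, and at 51.0 to 67.2 TPM in the other libraries. Over all genes on the log2 scale IP 2 and IP 3 correlated at r = 0.962 and Inputs 1 and 2 at 0.973, while IP 1 and Input 3 correlated with the other libraries of their own group at 0.722 to 0.882. Levels are therefore given below as TPM and, for comparisons, as the centred level, log2(TPM + 1) minus the median gene of the same library. The centred difference is the IP mean minus the Input mean on that scale, with the standard error (SE) of limma's fit. A second fit left out IP 1 and Input 3. The tagged gene Rpl10a had 559, 365 and 439 TPM in the IP libraries against 117, 61.8 and 36.2 in the Inputs, given here and below in the order of replicates 1, 2 and 3. In limma its centred difference was 3.03 (adjusted p = 0.649), and 2.51 without IP 1 and Input 3 (adjusted p = 0.00350).

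The labelled region was checked against markers of its cell types, of which none passed over 3 against 3 libraries. Of 8 motor and cholinergic markers 5 had values, all 5 with a positive centred difference (median 1.28), and their summed TPM was 412 to 643 in IP and 186 to 326 in Input. All 5 were called higher without IP 1 and Input 3. The 5 dopamine markers with values, of 7, were all below 0 (median -1.04), with sums of 88.0 to 532 in IP and 148 to 1588 in Input. The 4 serotonin markers, of 5, were also all below 0 (median -0.48), with sums of 315 to 1169 and 162 to 3320. Without IP 1 and Input 3, 3 dopamine and 3 serotonin markers were called lower. Of all genes, 3.38% were called higher and 2.89% lower in that fit. The 5 genes listed as Edinger-Westphal markers were Cartpt, Ucn and Cck, together with Calca and Calcb. They had 2 above 0 and 3 below, with sums of 1269 to 1545 in IP and 623 to 3865 in Input. Without IP 1 and Input 3, 2 of them were called higher and 2 lower. Of the GABA and glutamate markers 4 of 6 had values, 1 above 0 (sums 429 to 757 and 503 to 621), of the oligodendrocyte markers 6 of 10, 2 above 0 (365 to 4437 and 536 to 4877), and of the endothelial and blood markers 4 of 11, 1 above 0 (383 to 1213 and 466 to 1692). In the fit without IP 1 and Input 3, 1 GABA or glutamate marker and 1 endothelial or blood marker were called higher. There 1 oligodendrocyte marker was called lower. None of 4 oligodendrocyte precursor markers had a value. The part of these cell types in the results below was not tested.

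Over 3 against 3 libraries the centred differences of the 41 genes spread much as those of all genes did. Relative to the median gene, 21 were higher in IP and 20 lower, and their median centred difference was 0.00059, beside 0.020 for all genes. The middle of the members ran from -0.35 to 0.31 (25th to 75th percentile), and that of all genes from -0.28 to 0.32. In limma's test with Benjamini-Hochberg adjustment over all genes, 0 members and 0 of all genes (0.0% in each direction) passed an adjusted p of 0.05. At an unadjusted p of 0.05, limma had Grk6 and Pde4a higher in IP, against 3.58% of all genes (198), and Gabbr1 lower, against 3.85% (213). All 3 IP libraries lay above all 3 Input libraries in centred level for 6 members, Grk6, Rgs11, Pde4a, Gng13, Gpr137 and Gpr137b, a pattern seen in 6.93% of all genes. All 3 lay below for 1 member, Gabbr1, against 9.71% of all genes. This last count was 7 without IP 1, where it was 15.9% of all genes, and 13 without Input 3, where it was 20.2%. In TPM as deposited, with no centring, 1 member lay wholly above, Grk6, and 2 wholly below, Pde6d and Arrb2, against 1.7% and 6.21% of all genes. With 3 pools a group, the smallest 2-sided p an exact permutation test could give is 0.1.

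**Figure D1:**
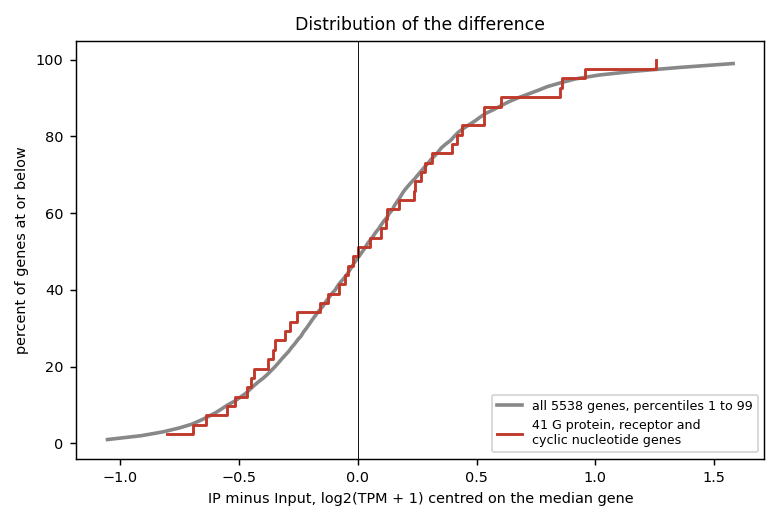
Percent of genes (vertical axis) at or below each centred IP minus Input difference (horizontal axis, log2 units) for all 5538 genes in grey and the 41 members in red. The red steps follow the grey line, with medians of 0.00059 and 0.020.

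Leaving out IP 1 and Input 3 together, a choice made with earlier results of these data known, gave a second reading of 2 IP against 2 Input libraries. There 15 members lay above 0 and 26 below, with a median of -0.15, beside 2558 and 2980 of all genes and a median of -0.037. The libraries kept correlated at 0.962 and 0.973 within their groups, so limma's SE and p-values here may understate the spread between pools. Only 2 members passed. Grk6 was higher in IP (centred difference 1.23, SE 0.18, limma adjusted p = 0.00688) and Gng2 lower (-1.03, SE 0.22, adjusted p = 0.0317). That is 1 of 41 in each direction, beside 3.38% of all genes called higher (187) and 2.89% called lower (160). The IP values lay wholly above the Input values in 11 members, against 25.2% of all genes, and wholly below in 18, against 31.5%. Without centring the libraries, an alternative added after the data were seen, limma called 1 member higher, again Grk6, and 11 lower, against 2.18% (121) and 16.9% (936) of all genes, so the balance of directions followed the scaling.

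**Figure D2:**
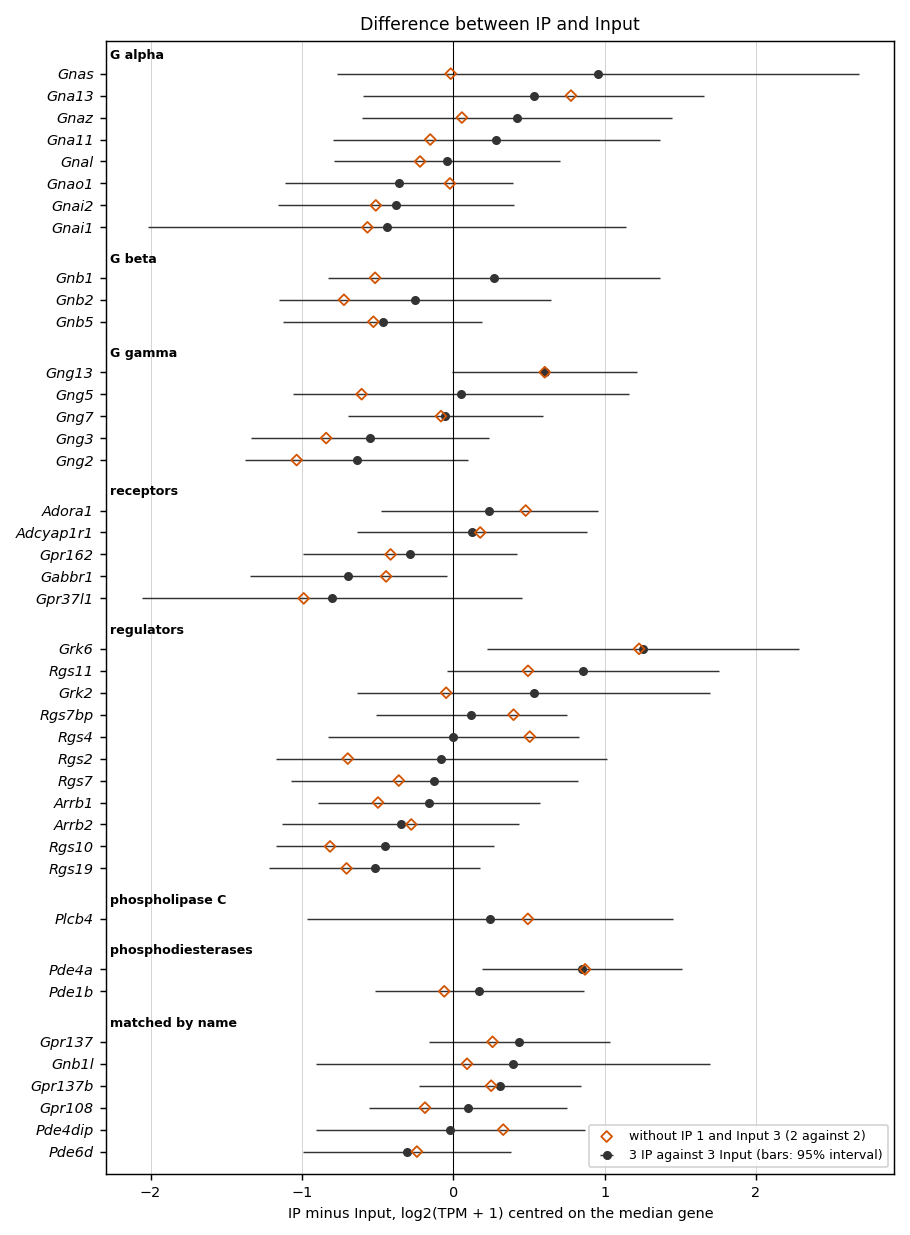
Centred IP minus Input difference (horizontal axis, log2 units) of each member, grouped by role, with filled points and 95% intervals for 3 against 3 libraries and open diamonds without IP 1 and Input 3. Of the intervals, those of Grk6 and Pde4a lie wholly above 0 and that of Gabbr1 wholly below 0, before any adjustment for the number of genes.

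Among the alpha subunits, 4 of 8 had a centred difference above 0 and 4 below, and none passed the test. Gnas, which encodes Gs alpha and lies in an imprinted locus (chromosome 2, 174284320 to 174346744), was by far the most abundant member, with 1075, 1901 and 1672 TPM in the 3 IP libraries against 2423, 2001 and 160 TPM in the Inputs, in order of replicate. Input 3 stood far below the other Inputs, and the remaining 5 libraries had centred levels from 4.88 to 5.23. The centred difference of 0.95 (SE 0.74, limma adjusted p = 0.744) rested on that library: without Input 3 it was 0.050, and without IP 1 and Input 3 it was -0.017. A predicted gene on the opposite strand inside the locus, Gm20721, had 39.4, 694 and 471 TPM in the IP libraries against 1287, 1194 and 94.5 in the Inputs, and reads of the 2 cannot be told apart unless strand was used in counting, which the labels do not state.

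Gnai2, an inhibitory alpha subunit found in most cells, had 42.2, 130 and 100.3 TPM in the IP libraries against 191, 207 and 51.1 in the Inputs, overlapping groups with a centred difference of -0.38 (SE 0.33, limma adjusted p = 0.763) and -0.51 in the second reading. Gnao1, the main alpha subunit of neurons, had 41.4, 162 and 138 TPM in the IP libraries against 205, 168 and 95.7 in the Inputs. Its centred levels of 1.50 and 1.42 in IP 2 and IP 3 lay among the Input levels of 1.31 to 1.66, and IP 1 was lower, at 0.56. The difference was -0.36, and -0.022 in the second reading. Gna13, an alpha subunit of the G12 and G13 class, had 21.2, 19.7 and 30.6 TPM in the IP libraries against 15.9, 18.6 and 23.2 in the Inputs, with a centred difference of 0.53 (SE 0.48, adjusted p = 0.767). Its Input 3 level lay among the IP levels, above those of IP 2 and IP 3. The difference ran from 0.25 without Input 1 to 1.02 without Input 3 and was 0.78 in the second reading. The remaining alpha genes, Gnaz, Gna11, Gnal and Gnai1, had centred differences between -0.44 and 0.42, and between -0.57 and 0.057 in the second reading.

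As shares, which do not depend on the library's scale, Gnas made up 85.6, 77.3 and 77.6% of the summed alpha subunit TPM in the IP libraries and 76.6, 73.1 and 42.1% in Input. The IP shares were all above the Input shares, though Input 1 was close to IP 2 and IP 3. Gnai2 took 3.36, 5.26 and 4.65% in IP and 6.05, 7.58 and 13.4% in Input, where the groups did not overlap. Nor did they for Gnai1, with 0.84, 2.78 and 3.11% in IP and 3.74, 4.70 and 3.57% in Input. Shares within a family move against each other: of the alpha subunits other than Gnas, Gnai2 took 23.3, 23.1 and 20.8% in IP and 25.9, 28.2 and 23.2% in Input, and there IP 1 lay above Input 3.

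**Figure D3:**
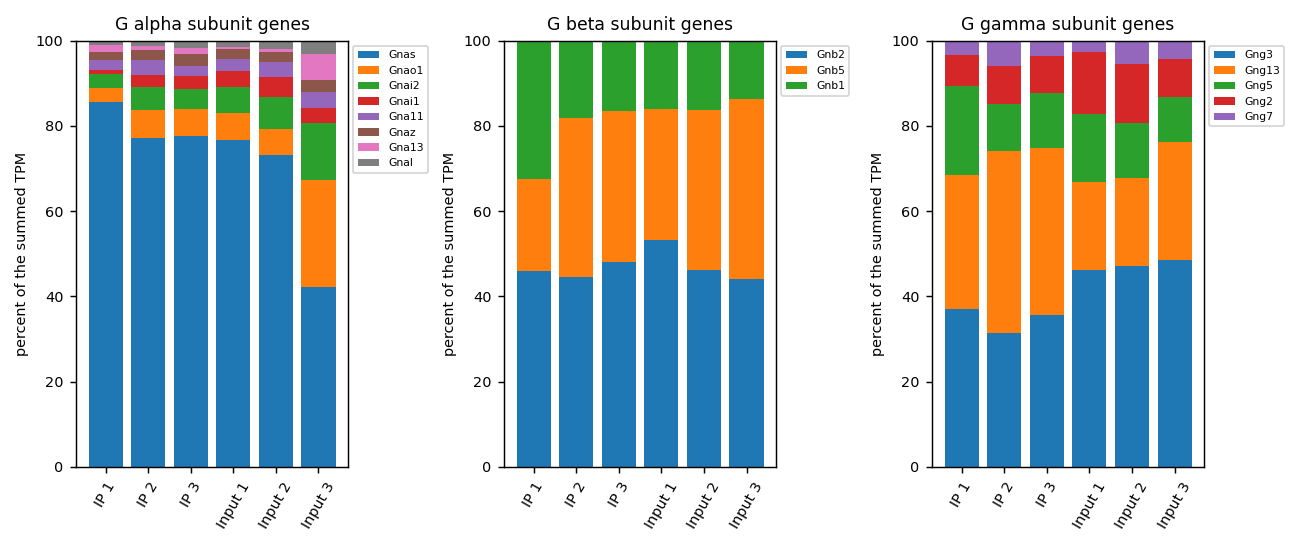
Stacked percent of the summed TPM (vertical axis) that each alpha, beta and gamma subunit gene took in each library (horizontal axis). Gng3 takes 46.1 to 48.6% of gamma subunit TPM in the Input libraries and 31.5 to 37.0% in the IP libraries, and Gnas takes 42.1% of alpha subunit TPM in Input 3.

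The 3 beta subunit genes gave no call. Gnb2, one of the widely expressed beta subunits (chromosome 5), had 126, 167 and 207 TPM in the IP libraries against 439, 320 and 87.7 in the Inputs, with a centred difference of -0.25 (SE 0.38, limma adjusted p = 0.848) that was 0.047 without Input 1, -0.60 without Input 3 and -0.72 in the second reading (adjusted p = 0.117). Gnb1, the other widely expressed form, had 88.9, 67.5 and 71.3 TPM in the IP libraries against 132, 112 and 27.2 in the Inputs. Its centred difference was 0.27 (SE 0.47), and it turned to -0.16 without IP 1, -0.088 without Input 3 and -0.52 without both. Of the beta subunit TPM, Gnb1 took 32.4, 18.1 and 16.6% in IP and 16.0, 16.2 and 13.6% in Input. These shares did not overlap, though IP 3 and Input 2 were close. Gnb5, the beta subunit that pairs with RGS proteins of the R7 family in place of a gamma subunit, had 59.1, 140 and 153 TPM in the IP libraries against 255, 260 and 84.4 in the Inputs. Its centred levels were 1.07, 1.29 and 1.57 in IP and 1.97, 1.94 and 1.41 in Input, a difference of -0.47 (SE 0.28, adjusted p = 0.702), with Input 3 between IP 2 and IP 3.

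The gamma subunits, small prenylated proteins that anchor the trimer to the membrane, divided. Gng13, a gamma subunit known from taste cells and retinal bipolar cells (chromosome 17, 25717171 to 25719406), had 117, 172 and 191 TPM in the IP libraries against 157, 135 and 86.0 in the Inputs. Relative to the median gene its IP levels (2.04, 1.59 and 1.89) all exceeded its Input levels (1.27, 0.99 and 1.44), by 0.60 on average (SE 0.26, limma adjusted p = 0.649). The difference was 0.60 in the second reading too, with an adjusted p of 0.118. Gng2, a gamma subunit of neurons and other cells (chromosome 14, 19872559 to 19977627), had 27.1, 35.9 and 42.4 TPM in the IP libraries against 109, 89.8 and 27.2 in the Inputs. All IP values were below Inputs 1 and 2, and Input 3 lay among the IP values, so the centred difference of -0.64 (SE 0.32, adjusted p = 0.668) became -1.03 in the second reading, where it passed.

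Gng3, a gamma subunit of neurons, had 138, 127 and 174 TPM in the IP libraries against 349, 304 and 151 in the Inputs, with a centred difference of -0.55 (SE 0.34, limma adjusted p = 0.705) and overlapping levels, since IP 1 reached 2.27. It was -0.26 without IP 2, -0.82 without IP 1 and -0.84 in the second reading (adjusted p = 0.0718). Within the gamma family the gene made up 37.0, 31.5 and 35.6% of gamma TPM across IP libraries against 46.1, 47.0 and 48.6% in Input, and Gng13 made up 31.5, 42.6 and 39.1% in IP and 20.7, 20.8 and 27.7% in Input. Neither pair of groups overlapped, but the shares of a small family force opposite moves. As shares of all 41 members both genes overlapped, Gng13 with 4.48, 3.70 and 4.49% in IP and 2.45, 2.33 and 5.37% in Input, and Gng3 with 5.27, 2.73 and 4.09% in IP and 5.46, 5.26 and 9.43% in Input. These shares were looked at after the values of both genes were seen and are given without a test. Gng7, known from the striatum, had 12.03, 24.2 and 17.1 TPM in the IP libraries against 20.04, 35.0 and 13.5 in the Inputs. Its centred difference was -0.052 (SE 0.27), 0.069 without IP 3 and 0.11 without Input 2. Gng5 had a difference of 0.052, and of -0.61 in the second reading (limma adjusted p = 0.237). Gng13 and Gng3 overlap genes on the opposite strand, Chtf18 and Bscl2; Bscl2 had 102, 145 and 137 TPM in the IP libraries against 198, 219 and 65.9 in the Inputs.

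Only 5 receptor genes had values. Gabbr1, the subunit of the GABA-B receptor that binds GABA (chromosome 17, 37045966 to 37075067), had 35.1, 99.96 and 82.4 TPM in the IP libraries against 179, 128 and 91.2 in the Inputs. In centred level the IP libraries stood at 0.33, 0.81 and 0.68 and the Input libraries at 1.46, 0.92 and 1.52, so the groups did not overlap, with IP 2 and Input 2 nearest to each other. The centred difference was -0.69 (SE 0.28, 95% interval -1.34 to -0.04, unadjusted p = 0.0394, limma adjusted p = 0.649), and -0.44 in the second reading (adjusted p = 0.271). Adora1, the adenosine A1 receptor (chromosome 1), had 26.8, 80.7 and 49.3 TPM in the IP libraries against 42.2, 72.1 and 35.7 in the Inputs. Its levels overlapped, with a centred difference of 0.24 (SE 0.31, adjusted p = 0.822) that was -0.011 without Input 1 and 0.48 in the second reading. Adora1 made up 24.6, 23.1 and 20.5% of the TPM of the 5 receptors in IP and 8.84, 14.3 and 18.9% in Input, which did not overlap, but its share of all 41 members did (1.02, 1.74 and 1.16% in IP, 0.66, 1.25 and 2.23% in Input).

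Gpr37l1, an orphan receptor of astrocytes and other glia (chromosome 1), had 21.8, 113 and 68.4 TPM in the IP libraries against 182, 254 and 33.3 in the Inputs. It was lower in every IP library than in Inputs 1 and 2, and Input 3 was second lowest of the 6. The centred difference was -0.80 (SE 0.54, limma adjusted p = 0.726) and -0.99 in the second reading (adjusted p = 0.0511). Of the astrocyte markers 6 of 11 had values and none passed over 3 against 3 libraries, while 2 were called lower in the second reading. The centred difference was negative in 5 of the 6, beside 2669 of all 5538 genes, and their summed TPM ran from 864 to 2209 in IP and from 827 to 4043 in Input, with the low ends in IP 1 and Input 3. Their part in the result was not tested. Gpr162, an orphan receptor, had 14.9, 18.1 and 16.1 TPM in the IP libraries against 31.7, 25.4 and 17.1 in the Inputs, with a centred difference of -0.28 (SE 0.30), -0.41 in the second reading, and IP 1 among the Input levels. Adcyap1r1, the receptor of the peptide PACAP, had a centred difference of 0.12, and its ligand gene Adcyap1 had no value.

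**Figure D4:**
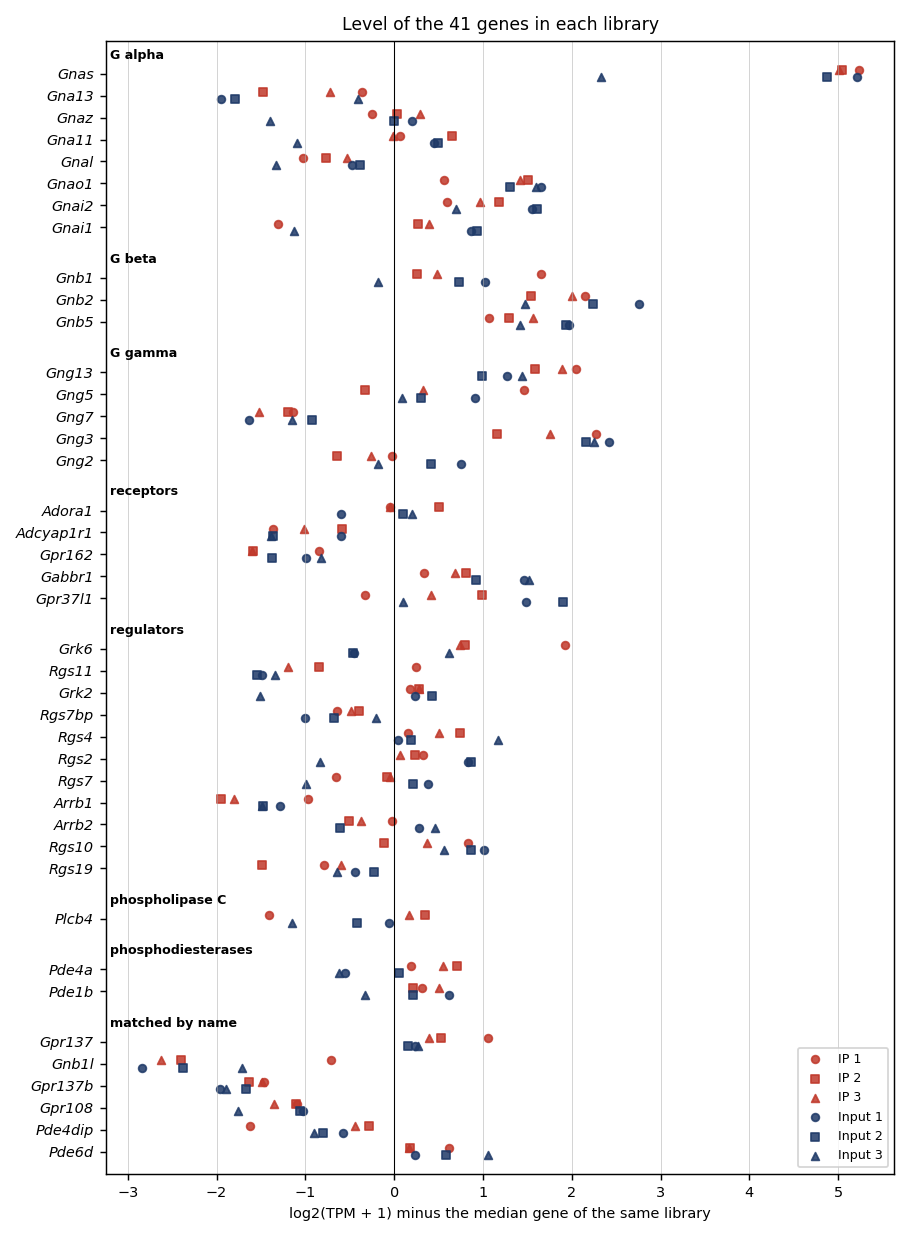
Centred level, log2(TPM + 1) minus the library's median gene (horizontal axis), of each member by role; red points are IP and dark blue points Input, and the marker shape gives the replicate number (circle 1, square 2, triangle 3). Grk6, Rgs11, Pde4a and Gng13 have all red points right of all blue points, Gabbr1 has them left, and the Input 3 point of Gnas stands at 2.33 against 4.88 or more elsewhere.

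Among the regulators, Grk6 stood out. This kinase phosphorylates activated receptors and is one of the forms found across the brain (chromosome 13, 55445072 to 55460927). It had 107, 98.6 and 86.0 TPM in the IP libraries against 46.8, 48.3 and 48.1 in the Inputs, or 97.3 ± 10.8 against 47.7 ± 0.86 (SD, n = 3 each), and was the 1 member whose IP libraries all exceeded the Input libraries with and without centring. Its centred levels were 1.92, 0.79 and 0.74 in IP and -0.45, -0.47 and 0.62 in Input, so IP 3 and Input 3 were the nearest pair. The centred difference was 1.25 (SE 0.44, 95% interval 0.22 to 2.28, unadjusted p = 0.0236, limma adjusted p = 0.649), and it ran from 0.87 without IP 1 to 1.61 without Input 3. Grk2, the ubiquitous receptor kinase, described here after its values were seen, had 31.5, 69.0 and 62.1 TPM in the IP libraries against 75.9, 90.5 and 10.3 in the Inputs. Grk6 made up 77.3, 58.8 and 58.1% of the TPM of the 2 kinases in IP and 38.1, 34.8 and 82.4% in Input, so Input 3 overlapped the IP libraries on this measure.

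The RGS genes went in both directions. Rgs11, an R7 family member that works with Gnb5 (chromosome 17, 26202951 to 26211324), had 33.1, 30.9 and 21.7 TPM in the IP libraries against 22.3, 22.4 and 11.6 in the Inputs. Its centred levels were 0.25, -0.85 and -1.20 in IP and -1.49, -1.55 and -1.34 in Input, which did not overlap, although IP 3 and Input 3 were close. The difference of 0.86 (SE 0.38, limma adjusted p = 0.649) was 0.44 without IP 1 and 0.49 in the second reading (adjusted p = 0.249). Rgs11 overlaps Arhgdig on the opposite strand, which had 195, 225 and 221 TPM in the IP libraries against 383, 439 and 50.6 in the Inputs.

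Rgs10, which acts on Gi and Go, had 50.2, 52.1 and 66.2 TPM in the IP libraries against 131, 124 and 46.2 in the Inputs. Its centred difference was -0.45 (SE 0.31, limma adjusted p = 0.731), and IP 1 lay among the Input levels. It was -0.21 without IP 2, -0.69 without IP 1 and -0.81 in the second reading (adjusted p = 0.0622). Rgs19, another regulator of Gi, had 15.6, 19.5 and 33.4 TPM in the IP libraries against 46.9, 57.2 and 19.5 in the Inputs, with a centred difference of -0.52 (SE 0.30), and -0.71 in the second reading. The remaining regulators, Rgs2, Rgs4, Rgs7, Rgs7bp, Arrb1, Arrb2 and Grk2, had centred differences from -0.35 to 0.53 with adjusted p from 0.774 to 0.999, and 3 of the 7 were above 0. In the second reading they ran from -0.70 for Rgs2 (limma adjusted p = 0.0611) to 0.51 for Rgs4 (adjusted p = 0.160).

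Phosphodiesterases that end the cyclic nucleotide signal had 2 genes with values. Pde4a, which breaks down cyclic AMP (chromosome 9, 21165714 to 21213248), had 31.7, 92.7 and 74.9 TPM in the IP libraries against 43.6, 70.0 and 19.8 in the Inputs. In TPM the groups overlapped because IP 1 was low, but in centred level IP stood at 0.19, 0.70 and 0.55 and Input at -0.55, 0.06 and -0.62, with no overlap. The centred difference was 0.85 (SE 0.28, 95% interval 0.19 to 1.51, unadjusted p = 0.0182, limma adjusted p = 0.649), it stayed between 0.73 and 1.07 when any single library was left out, and it was 0.87 in the second reading (adjusted p = 0.0650). Pde1b, a calmodulin-dependent enzyme that breaks down both cyclic nucleotides, had 34.5, 65.6 and 72.6 TPM in the IP libraries against 99.3, 78.0 and 24.6 in the Inputs. Its difference of 0.17 (SE 0.29) was -0.075 without Input 3. Pde4a made up 47.9, 58.6 and 50.8% of the TPM of the pair in IP and 30.5, 47.3 and 44.7% in Input, which did not overlap, though IP 1 and Input 2 were close.

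Plcb4, the phospholipase C beta that Gq drives in parts of the brainstem and cerebellum, was the only effector enzyme with a value. It had 9.78, 72.4 and 57.1 TPM in the IP libraries against 62.0, 50.0 and 13.5 in the Inputs, with IP 1 and Input 3 far below the rest. The centred difference was 0.24 (SE 0.52, limma adjusted p = 0.885), -0.086 without IP 2, -0.063 without Input 3 and 0.49 in the second reading. No adenylyl cyclase gene had a value.

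Another 6 genes match the rule by symbol but are not established members of the pathway. Gpr137 and Gpr137b, lysosomal membrane proteins, had 58.5, 82.0 and 67.0 and 9.39, 17.5 and 17.5 TPM in IP, and 76.0, 75.2 and 37.5 and 15.8, 20.4 and 7.62 TPM in Input. Relative to the median gene both had all IP levels above all Input levels, with centred differences of 0.44 (SE 0.26, limma adjusted p = 0.702) and 0.31 (SE 0.23, adjusted p = 0.736). In Gpr137b the nearest levels were -1.64 in IP 2 and -1.67 in Input 2, and Gpr137 overlaps Bad on the opposite strand, which had 53.2, 45.0 and 52.5 TPM in the IP libraries against 67.0, 83.9 and 38.7 in the Inputs. Pde6d, a carrier of prenylated proteins and not the catalytic part of an enzyme, had 43.0, 63.9 and 57.2 TPM in the IP libraries against 76.1, 101 and 65.6 in the Inputs. Its TPM were lower in every IP library, but the centred difference was -0.31 (SE 0.29) with overlapping levels. Gnb1l, a WD-repeat protein named for its likeness to beta subunits, had 16.5, 9.87 and 7.40 TPM in the IP libraries against 8.13, 12.1 and 8.78 in the Inputs, with a centred difference of 0.40 (SE 0.56) that was -0.21 without IP 1 and 0.091 in the second reading. Gpr108 and Pde4dip, a protein of the centrosome and Golgi, had differences of 0.096 and -0.019.

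Genes that the rule does not reach, related to the pathway by function or only by name or family, were taken from 7 lists. Of their 158 entries, 39 had values. None passed in limma over 3 against 3 libraries, with 19 above 0 and 20 below and a median centred difference of -0.0033. In the second reading 4 were called higher and 3 lower, beside 3.38% and 2.89% of all genes, and Prkar2a, Pkig and Icmt are named below because of that, after their values were seen. Of the 11 cAMP-dependent protein kinase genes with values, Pkia, an inhibitor of that kinase, had 10.2, 35.4 and 33.5 TPM in the IP libraries against 92.7, 104 and 43.1 in the Inputs, below every Input library with and without centring (centred difference -1.40, SE 0.27, limma adjusted p = 0.649). It fell in the second reading (-1.20, adjusted p = 0.00858), where the regulatory subunit Prkar2a and the inhibitor Pkig rose (0.87 and 1.02, adjusted p = 0.0394 and 0.0332). Pkig had 173 and 257 TPM in the libraries left out there, IP 1 and Input 3, more than in any other. Prkacb, a catalytic subunit, had a difference of -0.55 over all libraries.

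Of 4 phospholipase C second messenger genes, Dgkz, which removes diacylglycerol, had 41.5, 147 and 116 TPM in the IP libraries against 60.4, 84.5 and 41.9 in the Inputs, with all centred IP levels above the Input levels (0.82, SE 0.30, limma adjusted p = 0.649) and a call in the second reading (1.15, adjusted p = 0.0168). Dgkq had a difference of 0.19. Among 13 genes of G protein assembly, prenylation and receptor trafficking, Pdcl3, a phosducin-like protein, was lower (-0.74, adjusted p = 0.649) and was called lower in the second reading (-1.07, adjusted p = 0.0219), where Icmt, which methylates prenylated proteins, was called higher (1.31, adjusted p = 0.0490). Icmt had 13.1, 106 and 47.7 TPM in IP, so the 2 IP libraries of that reading lay far apart. Gnl1 had a difference of 0.36. The 3 CREB family genes with values held Atf2, with 13.9, 36.3 and 28.6 TPM in the IP libraries against 66.1, 65.3 and 40.3 in the Inputs, below every Input library in both scales (-0.91, SE 0.23, adjusted p = 0.649), and Atf4 (-0.086). The 2 cGMP genes, Gucy1b3 and Gucy1a3, subunits of the soluble guanylyl cyclase, had -0.57 and -0.13, and the potassium channel gene Kcnj9, a target of beta-gamma, had -0.46. Of 5 other receptors with values, Gprc5b and Ntsr2 had differences of 0.58 and -0.36, and Ntsr2, which is also on the astrocyte list, was called lower in the second reading (-1.23, adjusted p = 0.00628).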

How the data were processed

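RNA libraries from 3 IP and 3 Input samples were compared. The deposited table gives TPM per gene, scaled by the authors within each library, per the file headers. Per the submitters' processing notes, RSEM, DESeq and the mm10 build were used, in roles and versions not stated, and no aligner is named in the sources used here. TPM keep no read depth, so depth is unknown and no counting interval or detection floor is given. All 6 value columns were used, and no 2 libraries were identical. Members and lists were chosen with earlier results of these data known, as was the choice to centre libraries and to leave out IP 1 and Input 3.

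TPM were transformed to log2(TPM + 1), centred on each library's median gene, and fitted across all 5538 genes with limma 3.58.1 in R 4.3.3 (group as the only term, eBayes with trend), and p-values were adjusted over the whole table by Benjamini-Hochberg, with calls at 0.05. Fold changes on this scale understate those of low genes. The script was tested on simulated data. Named genes are, per role, up to 4 with the smallest p and the most abundant 1, plus Adora1, Gabbr1, Gnas, Gnao1 and Gnb1 and, where listed, Adcyap1 (26 in all), and up to 2 per pathway list; marker lists are given by counts and sums, and 1 such list is not reported here. Coordinates are from GENCODE vM21 (GRCm38), where all 41 members matched by gene ID; upstream stretches are the 250 bases before RefSeq starts. Alternatives were no centring, quantile normalization, a pseudocount of 0.1, a mean TPM of at least 20, a block for the replicate number, and fits with libraries left out. P-values measure the spread between the pools fitted. In the second reading those were the 2 most alike of each group, so that spread may be understated.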

Additional observations from a re-analysis of the deposited data

How the results depend on the processing

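Of the 26 named members, 17 kept their sign in every alternative run for them, which for Gpr137b leaves out the mean of 20 TPM. For this count, differences from the fits without centring had the median difference of all genes subtracted. They therefore do not show the sign of a difference left unscaled. With each library left out in turn, limma called 0 to 16 genes higher and 0 to 1 lower, the 16 and the 1 without Input 3, and called no member; the members wholly above ranged from 6 to 8 (9.1 to 18.1% of all genes) and those wholly below from 1 to 13 (12.5 to 20.2%). Without IP 1 and Input 3, 187 and 160 genes and 1 and 1 members were called higher and lower, with 11 and 18 members wholly above and below; without centring as well these were 121, 936, 1 and 11, with 25 wholly below (56.4% of all genes). With no centring of the 6 libraries 1 member was wholly above and 2 below, and quantile normalization had 2 below (11.1%). The differences that changed sign with 1 library left out ranged, from lowest to highest, from -0.011 to 0.39 for Adora1, -0.16 to 0.54 for Gnb1, -0.21 to 0.75 for Gnb1l, -0.60 to 0.047 for Gnb2, -0.25 to 0.11 for Gng7, -0.075 to 0.40 for Pde1b and -0.086 to 0.80 for Plcb4. Without IP 1 and Input 3 the values were -0.017 for Gnas, -0.52 for Gnb1 and -0.060 for Pde1b, and uncentred, relative to the median gene, -0.48 for Gnb1, -0.022 for Pde1b and 0.015 for Gnao1. The cause was not tested.

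Deviations from the group means correlated between IP and Input at -0.099, 0.25 and -0.17 for replicate numbers 1, 2 and 3. For unlike numbers they correlated at -0.25 to 0.19. With 3 libraries a group this cannot tell whether libraries of the same number came from the same pool. With the replicate block limma called 0 genes and 0 members, as without it.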
